A study of Cricetulus griseus with 3 samples.

Results

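The nuclear pore and nuclear transport factors were taken as every spot of the array that carried a single gene symbol beginning with Nup and a digit (or Nupl), Kpn, Ipo and a digit, Xpo, Ranbp, Rangap, Tnpo, Cse1l, Nxf, Nxt or Nutf, or equal to Ran. The pattern found 74 of 17664 spots, and these EST clones (PCR products of mouse cDNA) stood for 45 genes, of which 28 were measured by 1 clone and 17 by 2 to 4. No member lay among the 736 spots treated as controls, so all 74 were among the 16928 spots tested, and no filter on low values was applied. A further 5 spots carried a name of the pattern together with a second gene name, among them both spots named for Nxf1, and were not counted as members.

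RNA came from S-1 cells and from the parental CHO cells, an established cell line from the ovary of the Chinese hamster. S-1 cells were derived from CHO through an intermediate line and carried stable constructs for 4 subunits of γ-secretase, among them Flag-PEN2, APH1-a2-HA and NCT-GST, and the study also marks APP, the amyloid precursor protein, as overexpressed in them. They were kept under selection with blasticidin, hygromycin, zeocin, puromycin and G418 and received 0.05% DMSO for 24 h. The parental cells were not transfected, got none of these drugs, and were exposed for 24 h to 10 µM DAPT, an inhibitor of γ-secretase, in 0.05% DMSO. Each of 3 arrays was hybridised in 2 colours with RNA of 1 culture of either kind, and the dyes were exchanged on array 3. Cell line, constructs, drugs and inhibitor thus changed together, and their parts in any ratio cannot be told apart.

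All values are log2 ratios, where 1 is a doubling in S-1 cells and a negative value is a lower transcript level in S-1 cells. The dyes alone do not give the direction of the deposited columns. S-1 over DAPT-treated CHO is the likely one, since clones of transfected subunits lay far above 0 on each array (2.84, 3.11 and 3.33 for Psenen, the gene of PEN2, and 1.85, 2.17 and 2.04 for Aph1a, on arrays 1 to 3), and as the legends of the study's clone lists also have it. Ncstn, the gene of NCT, was at 0.33, 0.15 and 0.64 and did not pass the test. The ratios are relative to the other spots of an array, so a change in RNA per cell cannot be read from them, and they hold no levels against which the identity of the cells could be checked.

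Traffic between cytoplasm and nucleus runs through nuclear pores, rings of nucleoporins set into the nuclear envelope. A scaffold of Y-shaped complexes and an inner ring holds the pore in the membrane, nucleoporins rich in phenylalanine-glycine repeats fill the channel, and filaments and a basket extend into cytoplasm and nucleus. Importins and exportins, the karyopherins, carry proteins and some RNAs through the channel. The small GTPase Ran, bound to GTP in the nucleus and to GDP outside it, tells them where to release cargo, while most mRNA leaves on the Nxf1-Nxt1 receptor. Intracellular domains freed by γ-secretase have to pass the same pores to reach their target genes.

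Of the 74 member clones, 10 were higher in S-1 cells, 5 were lower and 59 did not pass the test (adjusted p at or below 0.005, limma, adjusted over all 16928 tested spots). The shares of 13.5% higher and 6.76% lower stood beside 9.68% and 8.52% of all tested spots. All but 1 of the members were H clones, the main clone collection of the array, and among all 15360 H clones 6.76% were higher and 8.52% lower in the same fit. Called in either direction were 20.3% of the members and 18.2% of all spots, and the median log2 ratio was 0.05 for the members and 0.01 for all spots. The members' share in either direction thus stood close to that of all spots, while their share called higher was above that of the H clones, a difference that was not tested.

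Each of the 15 called clones lay on 1 side of 0 throughout, with mean log2 ratios between 0.39 and 0.93 in size. The clones that did not pass lay between −0.45 and 0.52. Standard errors of the members ran from 0.04 to 0.15, and the number of arrays limits the precision. The calls depended on the arrays and on the spots tested together. Without array 2, 0 members were called higher and 0 lower (21 and 12 at an unadjusted p under 0.05, limma), while 2.14% of all spots were called. Without array 1 the counts were 5 and 0 (26 and 10 unadjusted), while 7.98% of all spots were called. Without the dye-swapped array 3 they were 22 and 15, while 37% of all spots were called. With the control spots included in the fit, 5 and 0 passed (27 and 12 unadjusted), beside 6.71% of all 17664 spots. Both clones of Nup43, the Nup88 clone and a Nup160 clone at 0.67 were among the 5 in either case. For unadjusted counts, here and below, the matching share of all spots or genes was not taken. With all arrays, 39.8% of all tested spots and 46.2% of all values per gene passed at an adjusted p of 0.05 (limma). The unadjusted shares are at least as large.

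In values per gene, the mean of a gene's clones, 7 of 45 genes were higher in S-1 cells, 3 were lower and 35 did not pass. The shares were 15.6% higher and 6.67% lower, against 12.4% and 10.3% of the 8146 genes with a value. Called in either direction were 22.2% of the member genes and 22.6% of all gene values. By class, 5 of 13 nucleoporin genes rose and 0 fell (3 were below 0 at an unadjusted p under 0.05, limma), while of 32 transport factor genes 2 rose and 3 fell. The difference between these classes was not tested. Without array 1, 2 member genes were higher and 0 lower (15 and 5 at an unadjusted p under 0.05, limma), without array 2 also 2 and 0 (13 and 6 unadjusted), and without array 3 they numbered 12 and 6. Of all gene values, 8.26%, 5.97% and 40.5% were called in these fits. The gene values of Nup43 and Nup88 passed with any array left out. Nup88 has 1 clone, so its gene value is the ratio of that clone. Without array 2 it passed in the fit over genes (adjusted p = 0.00418, limma) but not in that over spots (adjusted p = 0.00969).

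**Figure D1:**
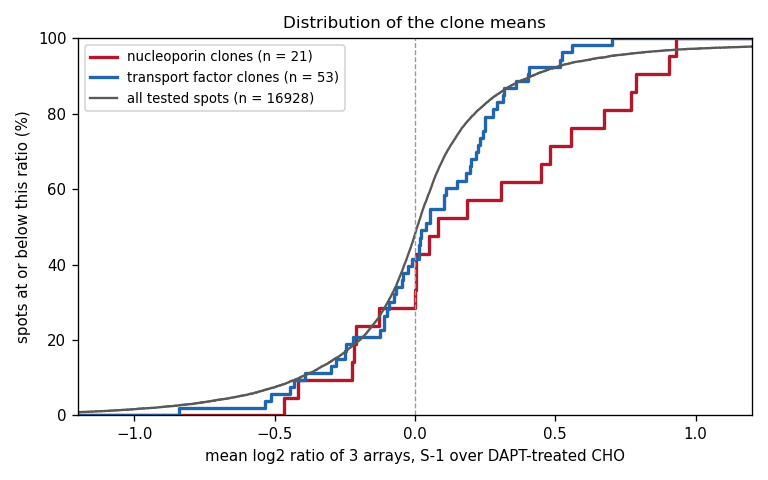
Percent of clones (vertical axis, cumulative) up to a given S-1/DAPT-treated CHO log2 ratio (horizontal axis, averaged over 3 arrays), drawn for 21 nucleoporin clones, 53 transport factor clones and all 16928 tested spots. Over most of the range above 0 the nucleoporin line lies to the right of both others and it is complete at 0.93, while the transport factor line is closer to that of all spots, with medians of 0.08 (nucleoporins), 0.04 (transport factors) and 0.01 (all spots).

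Clones of the Y complex, the outer scaffold of the pore, were mostly higher in S-1 cells, and the gene values of its 3 genes among the members passed. The members do not cover the whole complex. Nup43, a small subunit of the complex, was represented by 2 clones. The first was at 0.87, 0.96 and 0.95 on arrays 1 to 3, and the second at 0.80, 0.98 and 0.95. No array of either clone came near 0, and both clones lay within 0.02 of each other in their means. Their means were 0.93 ± 0.05 (SD, n = 3, linear ratio 1.90, adjusted p = 2.17e-04, limma) and 0.91 ± 0.10 (ratio 1.87, adjusted p = 3.81e-04).

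Nup160, a large subunit at the core of the Y, had 3 clones that differed in size. The highest was at 0.62, 0.72 and 1.02 (mean 0.79 ± 0.20, SD, n = 3, ratio 1.73, adjusted p = 0.00212, limma), and the next at 0.60, 0.71 and 0.71 (mean 0.67 ± 0.06, adjusted p = 6.50e-04). The third clone, at 0.29, 0.36 and 0.27, just missed the threshold (mean 0.31 ± 0.05, adjusted p = 0.0061). All 9 ratios of this gene were above 0. Nup37, which binds Nup160 in an arm of the Y, was measured by a single clone at 0.43, 0.48 and 0.53. Its mean of 0.48 ± 0.05 passed (ratio 1.39, adjusted p = 0.00152). Of the 6 Y complex clones 5 thus passed, all higher in S-1 cells, against 9.68% of all tested spots. The genes of this group and the group itself were chosen with earlier results of these arrays known, so the count is a description.

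The inner ring did not move as a unit. Nup155, which ties the ring to the membrane, had a clone at 0.50, 0.50 and 0.67 that passed (mean 0.56 ± 0.10, SD, n = 3, ratio 1.47, adjusted p = 0.00167, limma). The second Nup155 clone stayed near 0, at 0.13, 0.12 and −0.01, and the gene value of 0.32 still passed (adjusted p = 0.00317). Nup205, another scaffold subunit, was at 0.00 ± 0.04, with a 95% confidence interval from −0.11 to 0.12. Nup93, which anchors channel nucleoporins to the ring, lay below 0 on every array (−0.29, −0.21 and −0.17) without passing (adjusted p = 0.0185).

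Nup88, on the cytoplasmic face of the pore, gave the most even ratios of the single clones that passed, at 0.76, 0.79 and 0.76. The mean was 0.77 ± 0.01 (SD, n = 3, ratio 1.71, adjusted p = 3.02e-04, limma). Its partner on the filaments, Nup214, was at 0.06, 0.03 and −0.09, with a mean of 0.00 (95% interval from −0.13 to 0.13). Ranbp2, the large Ran-binding filament protein, was at 0.05 ± 0.09. Of the filament genes only Nup88 passed. The channel nucleoporins were on the other side of 0. Nup62, whose repeats line the channel, had clones at −0.22, −0.19 and −0.22 and at −0.39, −0.27 and −0.59. Both lay below 0 on every array, but neither passed (adjusted p = 0.0167 and 0.00978), nor did the gene value of −0.31 (adjusted p = 0.00727). Nupl1, the gene of the channel nucleoporin Nup58, averaged −0.13 ± 0.14.

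At the nuclear basket the clones of a gene disagreed. Nup153, a basket protein that binds importins, had a clone at −0.50, −0.36 and −0.54 that was lower in S-1 cells (mean −0.47 ± 0.10, SD, n = 3, adjusted p = 0.00281, limma), so that the level in DAPT-treated CHO was 1.38 times that in S-1 cells. A second clone of the gene was also below 0 (−0.36, −0.22 and −0.07, adjusted p = 0.0584). The third lay above 0 on each array, at 0.15, 0.08 and 0.32 (adjusted p = 0.0694), and the gene value of −0.17 did not pass. Nup50, which helps importin α let go of its cargo, had a clone at 0.48, 0.65 and 0.21 and another at −0.05, 0.08 and −0.02, neither past the threshold. Which clone of such a pair reports the hamster transcript better was not tested.

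**Figure D2:**
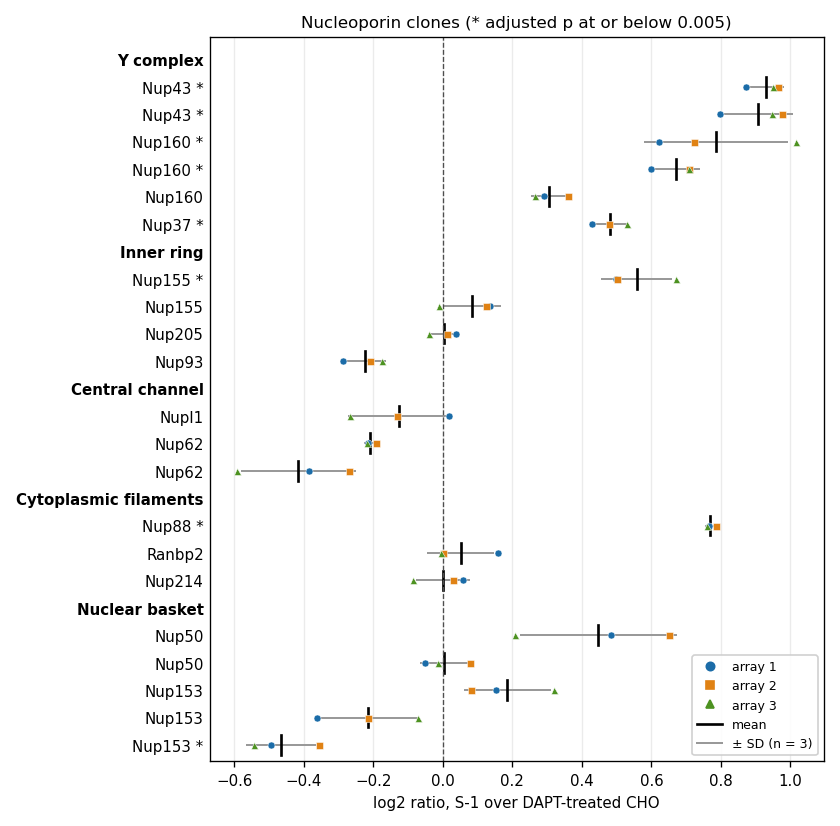
S-1/DAPT-treated CHO log2 ratio (horizontal axis) for each of the 21 nucleoporin clones, grouped by their place in the pore, with a symbol per array, a black bar at the mean and a grey line for ± SD (n = 3). Stars mark clones past the threshold. The 6 Y complex clones and Nup88 lie to the right of 0 on all arrays, both Nup62 clones lie to the left, and the 3 Nup153 clones spread from −0.47 to 0.19.

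Among the α importins, the adaptors that recognise nuclear localisation signals, Kpna2 and Kpna3 stood on opposite sides of 0. Both clones of Kpna2 were higher in S-1 cells, one at 0.50, 0.60 and 0.57 (mean 0.56 ± 0.05, SD, n = 3, ratio 1.47, adjusted p = 9.94e-04, limma) and the other at 0.30, 0.44 and 0.48 (mean 0.40 ± 0.09, adjusted p = 0.00412). Every array put both clones above 0. All 4 clones of Kpna3 were below 0 on every array, with means from −0.53 to −0.22. The lowest, at −0.54, −0.46 and −0.60, passed on its own (mean −0.53 ± 0.07, adjusted p = 0.00134), and the others spread more widely between arrays, with SDs of 0.15, 0.31 and 0.17. Averaged over its clones, Kpna3 gave nearly the same value on each array (−0.40, −0.40 and −0.42). This gene value was lower in S-1 cells (−0.41 ± 0.01, 1.33 times higher in DAPT-treated CHO, adjusted p = 0.00151). Its SD leaves out the spread between clones, which on array 3 ran from −0.80 to −0.02.

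The other α importins did not pass. Kpna4 was at 0.26, 0.37 and 0.20 (adjusted p = 0.013 for its clone), Kpna6 at 0.09, 0.07 and 0.44, and Kpna7 at −0.06, −0.24 and −0.07. The 3 clones of Kpna1 averaged 0.05, −0.03 and −0.30, and the lowest of them was below 0 on every array (−0.29, −0.24 and −0.36, adjusted p = 0.00762). Relatives of this family have similar coding sequences, and how far a mouse clone of one member bound the hamster RNA of another was not tested.

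Kpnb1, importin β, which ferries importin α and its cargo through the pore, was the member with the widest gap between clones. One clone was at −1.04, −0.94 and −0.54 and was called lower in S-1 cells (mean −0.84 ± 0.26, SD, n = 3, 1.79 times higher in DAPT-treated CHO, adjusted p = 0.00322, limma). Both other clones had means of 0.22, at −0.01, 0.27 and 0.41 and at 0.06, 0.16 and 0.45, and neither passed (adjusted p = 0.108 and 0.104). The ranges of the low clone and of the other clones did not overlap, and the gene value of −0.13 did not pass (adjusted p = 0.286). All 3 clones had their highest ratio on array 3, the dye swap.

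In the rest of the importin β family 1 gene passed, Ipo8, a karyopherin close in sequence to Ipo7. Its clone was at −0.45, −0.47 and −0.62, a mean of −0.51 ± 0.09 (SD, n = 3, 1.43 times higher in DAPT-treated CHO, adjusted p = 0.00198, limma). For Ipo7 the array mattered. A pair of its clones was at −0.55 and −0.53 on array 1 and at −0.38 and −0.46 on array 2, but at 0.18 and 0.14 on array 3, while the third clone stayed between 0.03 and 0.07 on all arrays. None passed over 3 arrays (means −0.25, −0.28 and 0.05). Without array 3 the first pair averaged −0.47 and −0.49 and passed (adjusted p = 1.56e-04 and 5.48e-05, limma).

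Tnpo1 (transportin), the importer of many RNA-binding proteins, showed the same shift. Its 4 clones were between −0.35 and 0.49 on array 1, between −0.25 and 0.33 on array 2 and between 0.28 and 0.76 on array 3, where each of them was highest. The clone with the highest mean was at 0.49, 0.33 and 0.76 (mean 0.52, adjusted p = 0.00902), above 0 throughout, and the means of the others ran from −0.11 to 0.10. Tnpo3, which imports splicing factors of the SR family, went the other way between arrays. Both its clones were lowest on array 3, at 0.62, 0.62 and 0.31 (adjusted p = 0.00603) and at 0.30, 0.48 and 0.10. On array 3 the exchanged dyes and the third experiment cannot be told apart.

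The remaining importins stayed short of the threshold. Ipo13 averaged 0.32, Ipo9 0.15 and the 2 clones of Ipo11 0.24 and 0.10, while Ipo4 averaged −0.24, Ipo5 −0.10 and Tnpo2 −0.07. In all, 0 of 20 clones of the importin β family were higher (9.68% of all tested spots) and 2 were lower (8.52%). At an unadjusted p under 0.05 (limma), 6 of these clones were higher and 2 lower, beside at least 39.8% of all tested spots in either direction.

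**Figure D3:**
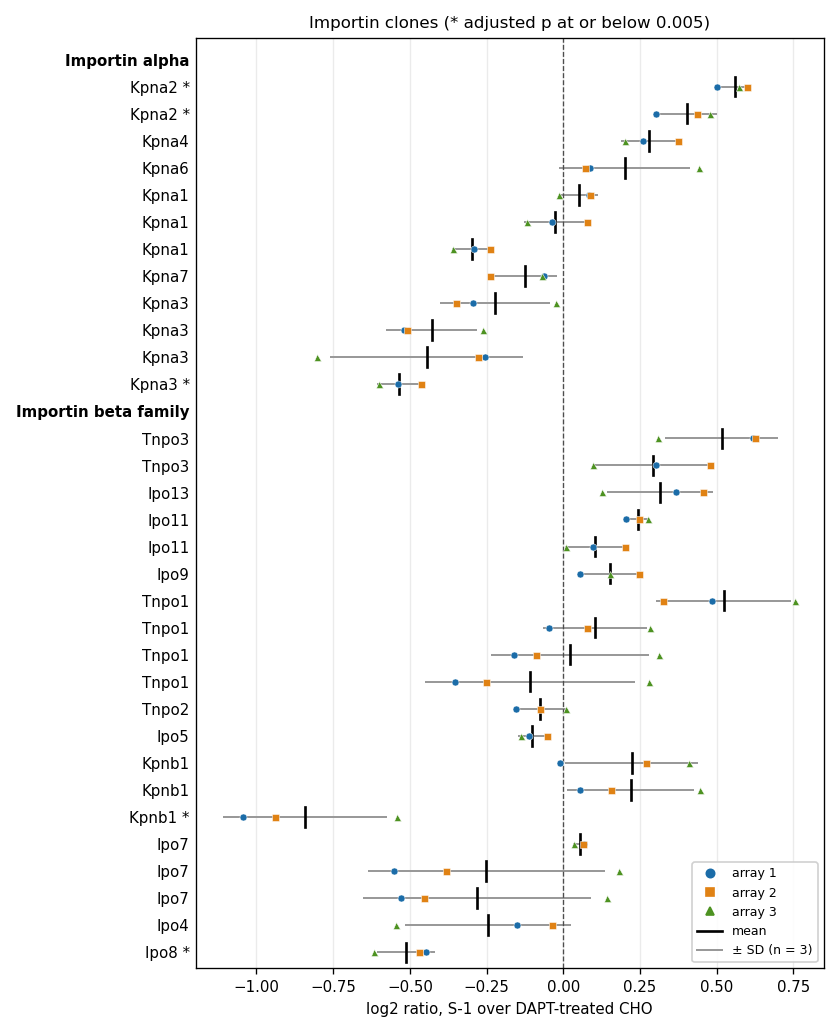
S-1/DAPT-treated CHO log2 ratio (horizontal axis) for 12 clones of α importins and 20 of the importin β family, with a symbol per array, a black bar at the mean and a grey line for ± SD (n = 3), and stars for clones past the threshold. Both Kpna2 clones lie right of 0 and all 4 Kpna3 clones left of it, and the green triangles of array 3 stand apart from the other arrays for some clones of Ipo7, Kpnb1 and Tnpo1.

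Of the exportins, Xpo4, which carries the translation factor eIF5A out of the nucleus, was called on 1 of its 3 clones. This clone was at 0.68, 0.84 and 0.59 (mean 0.70 ± 0.12, SD, n = 3, ratio 1.63, adjusted p = 0.00117, limma). A second clone was at 0.17, 0.18 and 0.20 and the third at 0.01, 0.02 and 0.09, so that the ranges of the 3 clones did not overlap. The gene value of 0.31 ± 0.03 passed (adjusted p = 0.00397), but taken as the median of the clones it was 0.18 and did not. Cse1l, which returns importin α to the cytoplasm, was at 0.42, 0.53 and 0.27, above 0 on each array and short of the threshold (mean 0.41 ± 0.13, adjusted p = 0.00661). Xpo1 (CRM1), the export receptor for leucine-rich signals, averaged 0.25 ± 0.13 (adjusted p = 0.0325).

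The other exportins lay near 0. Xpo5, the exporter of microRNA precursors, averaged 0.01, Xpo6, the exporter of actin, 0.02, Xpot, the exporter of tRNA, −0.07, and Ranbp17 −0.09. Their 95% intervals all included 0 and reached no further than −0.22 and 0.21.

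The Ran cycle held no call among its 7 clones, though 4 were higher at an unadjusted p under 0.05 (limma). At least 39.8% of all tested spots were under that p, in either direction. Ran itself was at 0.02, −0.02 and 0.04, a mean of 0.02 ± 0.03 (SD, n = 3) with a 95% interval from −0.10 to 0.13. A spot named for both Lrp1b and Ran, not a member, was at 0.03, 0.07 and 0.30. Rangap1, which makes Ran hydrolyse its GTP, was at −0.05 ± 0.12. Ranbp1, its cofactor in the cytoplasm, lay above 0 for all 4 clones on all arrays, with means from 0.23 to 0.36, and none passed (adjusted p from 0.00927 to 0.0423). These clones agreed on the order of the arrays at the top, since each was highest on array 2 (0.36 to 0.48, beside 0.10 to 0.23 on array 1 and 0.14 to 0.37 on array 3). Ranbp3, a cofactor of Xpo1, averaged −0.11 ± 0.24.

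Ranbp10 and Ranbp9 are related scaffold proteins named for binding Ran. Ranbp10 was lower in S-1 cells, at −0.37, −0.49 and −0.31 (mean −0.39 ± 0.09, SD, n = 3, 1.31 times higher in DAPT-treated CHO, adjusted p = 0.00468, limma). Among the single clones that passed, this was the smallest change. Ranbp9 was at −0.01 ± 0.04, with a 95% interval from −0.13 to 0.11. A spot named for both Nol7 and Ranbp9, not a member, was at −0.52, −0.54 and −0.31. The mRNA export receptor was covered by Nxt1, the small partner of Nxf1, with clones at 0.11 and −0.04, and by Nxf2, a relative of Nxf1 known from the germ line in mice, at 0.20 ± 0.02 (adjusted p = 0.0207). None of these passed. Both spots named for Nxf1 also carry the name Tmem223 and are not members. They were at 0.37, 0.52 and 0.43 and at 0.12, 0.17 and −0.04.

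**Figure D4:**
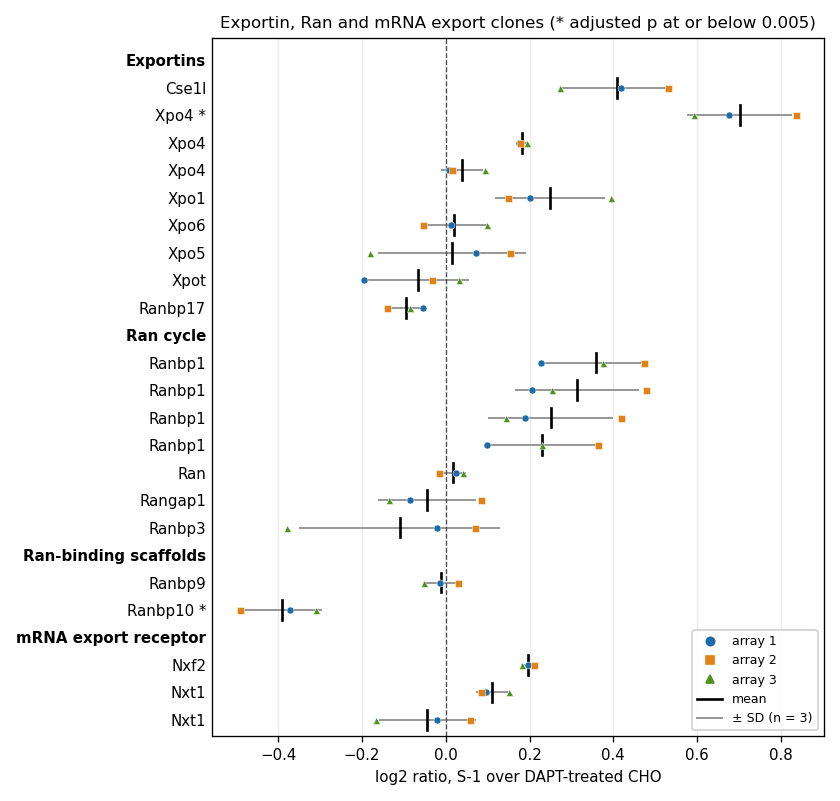
S-1/DAPT-treated CHO log2 ratio (horizontal axis) for the clones of exportins, the Ran cycle, Ran-binding scaffolds and the mRNA export receptor, with a symbol per array, a black bar at the mean and a grey line for ± SD (n = 3). Stars mark the clones past the threshold, 1 of Xpo4 at 0.70 and that of Ranbp10 at −0.39, and the 4 clones of Ranbp1 lie right of 0 with array 2 highest.

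The clones of a gene were a measure of how far a single spot can be trusted here. Of the 17 genes with several clones, 2 (Nup43 and Kpna2) had all clones called, in the same direction, and 6 (Kpna3, Kpnb1, Nup153, Nup155, Nup160 and Xpo4) had some called and some not. Means on both sides of 0 occurred in 6 genes, in Nxt1 with a gap of 0.15, in Ipo7 and Kpna1 of 0.34 and 0.35, and in Tnpo1, Nup153 and Kpnb1 of 0.63, 0.65 and 1.07. No clones of 1 gene passed in opposite directions in the test given here, but this depended on the setting. With the dye as a second coefficient the Kpnb1 clones at 0.27 and 0.28 passed (adjusted p = 0.00429 and 8.04e-04, limma) beside the low one at −0.77, and a Nup153 clone at 0.22 passed (adjusted p = 0.0027) beside that at −0.49. Without array 3, Tnpo1 clones passed at 0.41 and −0.30 (adjusted p = 3.29e-04 and 0.00125). The clones of a gene share a target and are not replicates of the condition.

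Across the 74 member clones, which share the arrays and in part a target, Pearson's r for array 1 was 0.963 with array 2 and 0.787 with array 3, and for the pair of arrays 2 and 3 it was 0.788. In the same order, r across all tested spots was 0.962, 0.878 and 0.892. On array 3 the sign was opposite to that on both other arrays for 12 members (16.2%), beside 17% of all tested spots. The sign was the same on all 3 arrays for 51 members (68.9%, and 67.6% of all tested spots).

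Further genes of the pore and of transport, which the symbol pattern misses, were listed separately, and 33 of the 45 symbols listed had a gene value. Of these, 9 were higher in S-1 cells, 2 were lower and 22 did not pass (27.3% and 6.06%, against 12.4% and 10.3% of all gene values, limma, adjusted over 8146 genes). Their median log2 ratio was 0.24, against 0.01 for all gene values. Without array 1 the counts were 4 higher and 0 lower (18 and 2 at an unadjusted p under 0.05), without array 2 they were 1, Thoc5, and 0 (17 and 2 unadjusted), and without array 3 they were 16 and 3. The shares of all gene values called were 8.26%, 5.97% and 40.5% in the same order. Except for Fyttd1 and Rcc2, each called gene of the list was measured by 1 clone. The list was written with earlier results of these arrays known, and its share is a description.

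All 8 pore genes of this list had a mean above 0. Sec13, a subunit of the Y complex that also serves in COPII vesicle coats, was at 0.65, 0.67 and 0.49 (mean 0.60 ± 0.10, SD, n = 3, ratio 1.52, adjusted p = 0.00111, limma), and the pore-associated membrane protein Tmem33 at 0.33, 0.35 and 0.44 (adjusted p = 0.00286). The Y complex genes Seh1l (0.27, 0.19 and 0.23) and Ahctf1 (0.06, 0.29 and 0.44), which targets the complex to chromatin, lay above 0 on every array and did not pass (adjusted p = 0.011 and 0.0499). Other subunits of the complex had no gene value. The mean was above 0 for all 6 genes of the Y complex with a gene value, and 4 of them passed (12.4% of all gene values were called higher). Nup98, a further pore gene, also encodes a subunit of the Y complex. Its spot is named for Prep as well and has no place in these counts. It was at −0.12, −0.22 and 0.02. Aaas, Rae1, Gle1 and Ndc1 were at 0.30, 0.33, 0.11 and 0.07 without passing.

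Rcc1, the exchange factor that loads Ran with GTP on chromatin, was at 0.29, 0.30 and 0.24 and missed the threshold narrowly (adjusted p = 0.00567). Its relative Rcc2 was at 0.29, 0.40 and 0.36 and passed (mean 0.35 ± 0.05, SD, n = 3, adjusted p = 0.00328, limma). Rcc2 acts mainly in mitosis. Rangrf, a Ran-binding protein, was at 0.24.

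The adaptors that load mRNA for export went both ways. Ddx39a, an RNA helicase of mRNA export, was at 0.76, 1.08 and 1.21 (mean 1.02 ± 0.23, SD, n = 3, ratio 2.03, adjusted p = 0.00119, limma). Thoc5, a subunit of the THO complex, was at 0.87, 1.23 and 0.90 (mean 1.0 ± 0.20, adjusted p = 9.32e-04). Each was measured by 1 clone, and both stood above every nucleoporin and karyopherin clone in their means. Alyref, an adaptor for Nxf1, averaged 0.60, the cap-binding gene Ncbp1 0.55 and Pcid2, of the TREX-2 complex, 0.51, and all passed. Eny2, another TREX-2 subunit, was at −0.58, −0.67 and −0.39 and was lower in S-1 cells (mean −0.55 ± 0.15, adjusted p = 0.00286), as was Fyttd1, a further adaptor for Nxf1, at −0.41, −0.62 and −0.46 (mean −0.50 ± 0.11, adjusted p = 0.00222). The other THO subunits Thoc1, Thoc6 and Thoc7 were at −0.15, 0.17 and −0.02 and did not pass. Nmd3, which brings the large ribosomal subunit to Xpo1, was at 0.62, 0.78 and 0.99 (mean 0.80 ± 0.19, ratio 1.74, adjusted p = 0.00149).

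**Figure D5:**
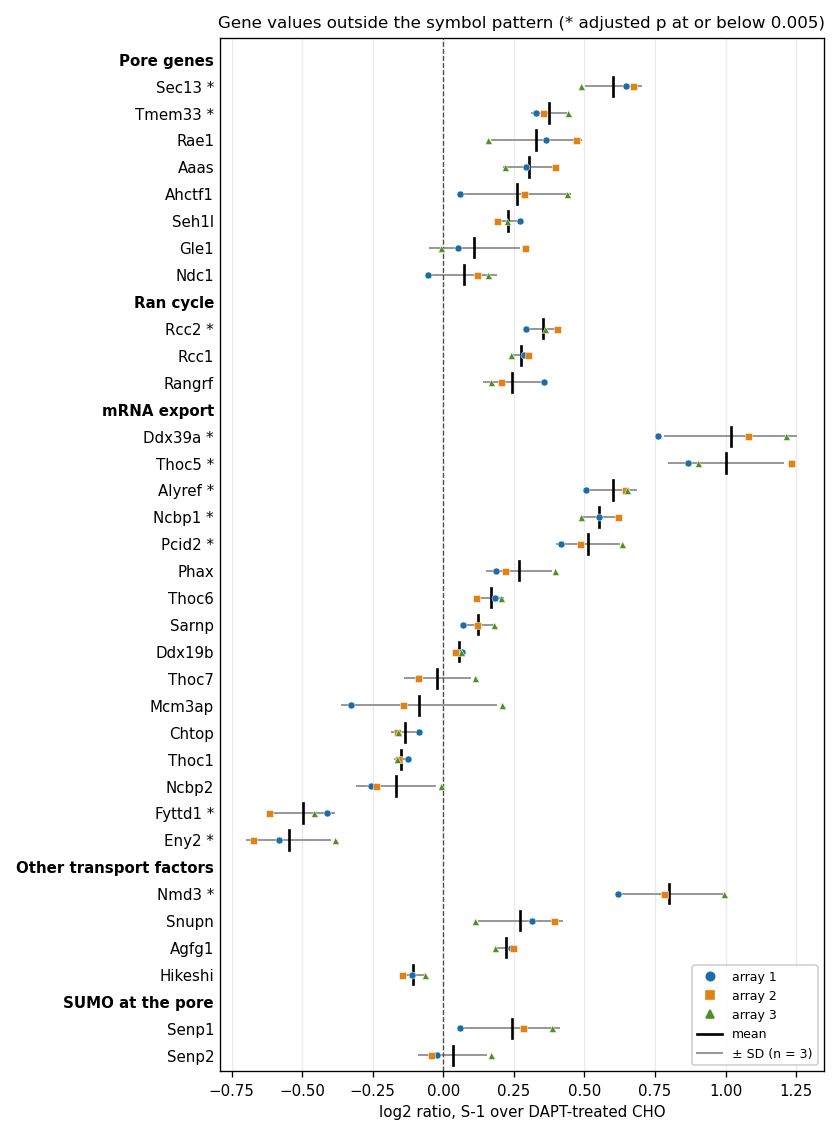
S-1/DAPT-treated CHO log2 ratio (horizontal axis) for the 33 further genes of pore and transport with a gene value, with a symbol per array, a black bar at the mean and a grey line for ± SD (n = 3), and stars for genes past the threshold. All 8 pore genes have means above 0, Ddx39a and Thoc5 reach 1.02 and 1.0, and Eny2 and Fyttd1 lie at −0.55 and −0.50.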

How the data were processed

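Log2 ratios of S-1 over DAPT-treated CHO on 3 mouse cDNA arrays, 1 per spot and array, were used as the authors deposited them. The authors had read the scans with GenePix Pro 6.0 and then applied lowess within print-tip groups, with no background subtracted. Intensities were not used here, so signal over background, background correction and a filter on dim spots were not analysed. Gene names were those of the platform annotation. Of the tested spots 12563 had 1 gene name, 412 several and 3953 none. The 736 spots at 23 positions where none of the 32 blocks has a gene name were left out as controls. H clones were placed by the clone IDs of the study's lists, of which 2514 of 2658 were paired to a spot by value alone (relative tolerance 6e-06).

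The mean ratio of each spot, and of the averaged spots of each gene, was tested against 0 by limma 3.58.1 (R 4.3.3) with moderated variances (prior df 3.05 for spots). P-values were adjusted after Benjamini and Hochberg and read at the study's threshold of 0.005. Biological triplicates were 3 independent experiments, and both cultures of an experiment shared an array. The script was tested on simulated data. The text names members that passed, members whose clones lay on both sides of 0 by more than 0.3, a member for each role, and listed genes of the pathway that passed. Others named with values were chosen after their values were seen. The members and lists were chosen with earlier results of these data known. Alternatives were a threshold of 0.05, centring, scaling and quantile normalisation of arrays, array weights, a coefficient for the dye, a robust prior, control spots included, H clones alone, the median of a gene's spots, and each array left out. Python 3.11.15, NumPy 2.4.6, pandas 2.3.3 and Matplotlib 3.10.9 made tables and figures.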

Additional observations from a re-analysis of the deposited data

How the results depend on the processing

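Counts of members called stayed within 1.5 times the values given under centring, scaling, quantile normalisation, a robust prior, H clones alone and, for genes, the median of the clones. With a threshold of 0.05, 26 member clones were higher and 11 lower in S-1 cells, 16 member genes were higher and 6 lower, and 20 pathway genes outside the symbol pattern were higher. With the dye as a second coefficient these counts were 27, 12, 16, 6 and 19, and with array weights 20, 9, 13, 5 and 16. Of all tested spots, the 0.05 threshold, the dye coefficient and array weights called 39.8%, 40.4% and 31.9%. Of all gene values they called 46.2%, 44.9% and 38.5%. In the fit given above the shares were 18.2% of spots and 22.6% of gene values. With the control spots included, 5 member clones were higher and 0 lower, and 6.71% of all spots were called. Leaving out each array gave between 0 and 22 member clones higher and between 0 and 15 lower, 2 to 12 member genes higher and 0 to 6 lower, and 1 to 16 pathway genes higher and 0 to 3 lower (limma). With an array left out, between 2.14% and 37% of all tested spots and between 5.97% and 40.5% of all gene values were called. Arrays 1 and 2 share a dye orientation, so a fit without array 3 holds any dye effect too. Each of the 15 member clones that passed kept its direction under all alternatives, and the call of each ended without array 2. Among clones that did not pass, array weights put a Kpna1 clone at 0.0128 and a Tnpo1 clone at −0.0781, each across 0. With arrays left out in turn these were at −0.077 to 0.0201 and −0.124 to 0.111, another Tnpo1 clone at −0.302 to 0.0131 and Rangap1 at −0.11 to 0.00013. The causes were not tested. The absence of signal intensities limits what can be said of dim spots.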
